A study of Homo sapiens with 12 samples.

Results

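Interferon-stimulated genes are the genes that type I and type II interferons switch on, and 37 of them were followed here among 57865 genes. The list is one of gene names, and each gene's level is the sum of its transcripts under the GENCODE 29 annotation. By role they are transcription factors, RNA sensors and enzymes, the IFIT family, the membrane proteins of the IFITM family with BST2, RSAD2 with MX1 and MX2, the ISG15 system, the IFI genes and a mixed group of effectors. RNA came from established human acute myeloid leukaemia lines grown in culture, KG-1a and MV4-11 together with MOLM-14 and OCI-AML3. Each line was sequenced after 12 h with 10 µM darglitazone, after 12 h with 10 µM pioglitazone, and after 12 h with DMSO, the solvent control. That makes 12 libraries of ribosome-depleted total RNA, 1 per line and treatment, so the 4 lines are the replicates of a drug and the 3 treatments are the only repeats of a line. A line stands for itself, not for a class of patients.

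Type I interferon binds the receptor IFNAR, whose kinases JAK1 and TYK2 phosphorylate STAT2. STAT2 and IRF9 are part of the complex ISGF3, which binds the interferon-stimulated response element, while interferon-gamma acts at the GAS element. The induced proteins sense viral RNA, degrade it, block its translation or stop virus entry and release, and several of them are also known to be expressed without added interferon in some leukaemia and solid tumour lines. Darglitazone and pioglitazone are thiazolidinediones, agonists of the nuclear receptor PPAR-gamma. They share the thiazolidinedione head group and differ in the side chain, which ends in a phenyl oxazole in darglitazone and in an ethyl pyridine in pioglitazone.

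The response elements are shown first because they are the sites through which interferon acts on these genes. The core of the response element was searched as GAAANNGAAA, or TTTCNNTTTC on the other strand, and the GAS element as TTCNNNGAA, which reads the same on both strands. Matches could overlap. The windows ran from 250 bases before to 50 bases after each RefSeq gene start on GRCh38.p14. Windows of 29 members were at hand, and 22 of these 29 held the core, against 4.38% of the 27305 genes with a window and 3.57% of all 35116 windows. GAS was found for 10 of the 29 members, against 9.38% of these genes and 7.66% of all windows. IFI35, OAS1, IRF1, IRF9, STAT2, SAMD9L and XAF1 had no core in this window, which says only that these letters are not there. Windows of OAS2, IRF7, TRIM22, OASL, IFITM2, MX2, IFIT2 and USP18 were not used here. 10 stretches of 40 bases follow, 5′ to 3′ on the strand of the gene, with every match of the named element in the stretch in capitals. RSAD2 (chr2:6877617-6877656, plus strand, in an intron of RSAD2), IFIT1 (chr10:89392492-89392531, plus strand, inside an intron of LIPA), IFIT3 (chr10:89332420-89332459, plus strand, in an intron of IFIT3 and of LIPA), IFI6 (chr1:27672283-27672322, minus strand, in an intron of AL445490.1) and ISG15 (chr1:1013375-1013414, plus strand, in an intron of ISG15) are shown because they were higher in KG-1a. IFI44 (chr1:78649756-78649795, plus strand, intergenic) and DDX60 (chr4:168318816-168318855, minus strand, intergenic) were lowest in MV4-11. HERC5 (chr4:88457030-88457069, plus strand, intergenic) was lower in KG-1a, and SAMD9 (chr7:93118091-93118130, minus strand, intergenic) did not pass the test there. IRF1 (chr5:132490873-132490912, minus strand, in an intron of AC116366.3) is shown for its GAS element.
RSAD2: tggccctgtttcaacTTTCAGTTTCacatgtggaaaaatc
IFIT1: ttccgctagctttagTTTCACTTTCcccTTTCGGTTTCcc
IFIT3: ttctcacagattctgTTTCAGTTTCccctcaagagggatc
IFI6: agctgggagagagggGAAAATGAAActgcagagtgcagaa
ISG15: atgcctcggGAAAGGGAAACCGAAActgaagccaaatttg
IFI44: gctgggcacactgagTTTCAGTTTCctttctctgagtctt
DDX60: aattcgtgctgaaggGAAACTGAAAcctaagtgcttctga
HERC5: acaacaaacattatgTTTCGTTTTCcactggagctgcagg
SAMD9: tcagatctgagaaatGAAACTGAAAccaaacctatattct
IRF1: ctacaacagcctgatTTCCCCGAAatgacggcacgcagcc
IFIT1 has a pair of matches in its stretch, and ISG15 a pair that overlap. The core is present both upstream of members that stood high in KG-1a and upstream of HERC5, which stood low there, and of SAMD9, which did not pass the test.

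The libraries held 1095491 to 64236554 estimated counts, a 58.6-fold range. The OCI-AML3 library with pioglitazone was the shallowest, and 3 counts in it equal 2.74 CPM, the unit of counts scaled to a common library size. Genes that mark other lines were detected in some libraries: in that OCI-AML3 library, 69 genes of KG-1a stood at 2.10% of their KG-1a level, and in the KG-1a library with darglitazone, 6 genes of MV4-11 stood at 3.94%. In the KG-1a library with pioglitazone, 23.5% of counts fell on a ribosomal RNA entry and 55.6% on protein-coding genes. Without these 3 doubted libraries together, an alternative chosen after the data were seen, KG-1a is left with its DMSO library alone, which is then assumed to vary like the libraries of the other lines. Some values are also given without them, or with the reads of other lines subtracted from every library. They cover part of the members whose call is lost or whose fold moves by over 1.5 times. Levels below are CPM scaled by TMM factors, tests are edgeR's quasi-likelihood F test with Benjamini-Hochberg adjustment over 15424 genes, and a member is called at an adjusted p under 0.05. The labels do not say that libraries came from separate cultures, so the p-values measure the spread between these libraries.

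KG-1a carried far more interferon-stimulated RNA than the other lines. The summed level of the 37 members was 2327, 1994 and 2619 CPM in KG-1a with darglitazone, pioglitazone and DMSO. It was 747, 677 and 687 CPM in MV4-11, 544, 529 and 509 CPM in MOLM-14, and 427, 469 and 461 CPM in OCI-AML3, each in the same order of treatments. KG-1a lay above the other 3 lines under every treatment, and no line overlapped its neighbour. IFITM1 and IFITM2 made up 38.2%, 40.1% and 41.3% of the sum in KG-1a with darglitazone, pioglitazone and DMSO, against 22.3% to 26.7% in MV4-11, 5.11% to 6.21% in MOLM-14 and 6.28% to 7.87% in OCI-AML3. Without those 2 genes the sum was 1437, 1195 and 1536 CPM in KG-1a and 400 to 580 CPM in the other lines, so KG-1a stayed above the rest. In bulk RNA, more cells that express a gene and more of its RNA per cell cannot be told apart.

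**Figure D1:**
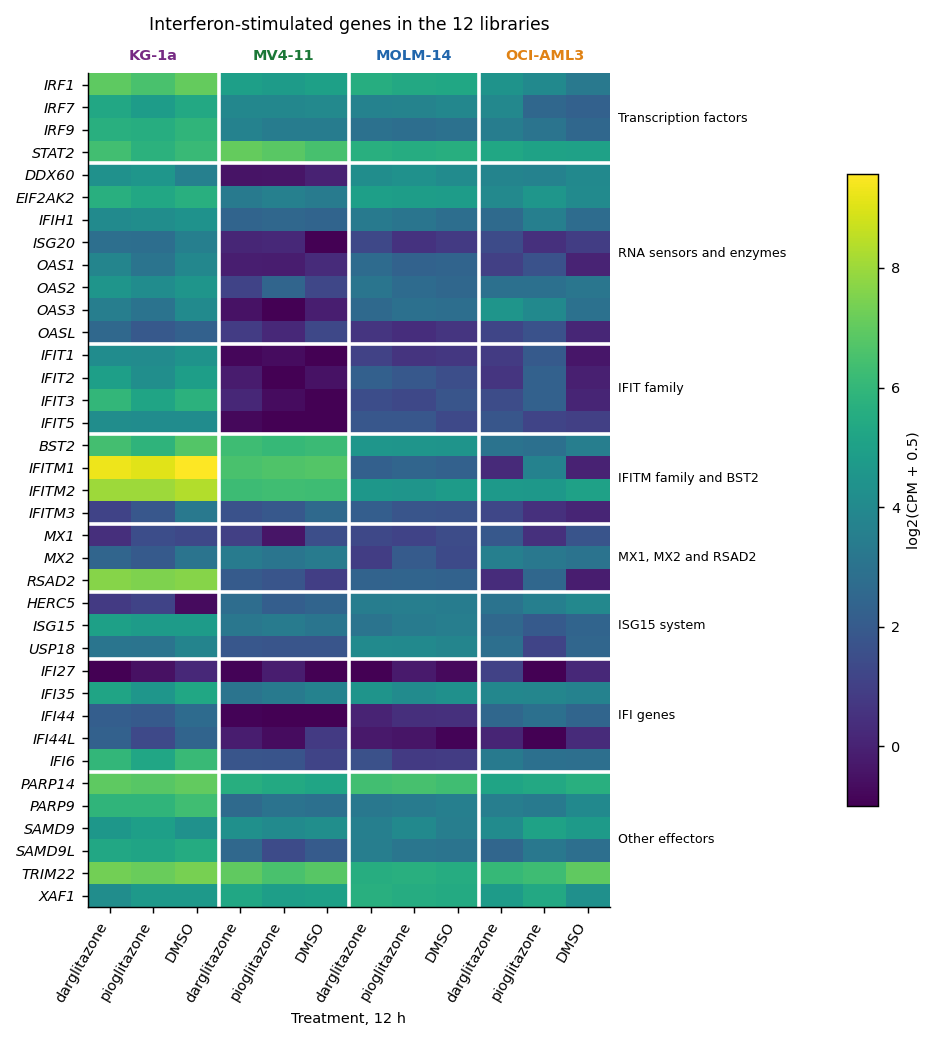
Level of each of the 37 members (rows, grouped by role) in the 12 libraries (columns, grouped by line and then treatment), as the log2 of CPM plus 0.5. The KG-1a columns are the brightest for most rows, and the IFIT rows and IFI44 are near the floor in MV4-11.

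Of the 36 members that passed the low-count filter, 29 were called higher in KG-1a than in the mean of the other 3 lines and 2 were called lower. Over all genes tested, 26.9% were called higher in this contrast and 27.2% lower. The median log2 fold change over the 36 members was 2.03, and over all genes tested it was -0.03. All 36 members also passed the filter when the libraries of any line were left out, so that no member entered through KG-1a alone. The member left out was IFI27, whose highest count in any library was 44.5. Without the 3 doubted libraries, 28 of the 31 calls remained, OASL, TRIM22 and XAF1 were lost and IFITM3 was gained, all with 1 KG-1a library. Of the 31 called members, 6 then moved by over 1.5 times in fold (DDX60, HERC5, IFIT1, IFIT2, ISG20 and OAS3), and with subtraction 4 did (IFI44, IFIT5, IFITM1 and RSAD2), with 0 changes of sign in either.

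The IFIT proteins bind foreign RNA, and IFIT1 recognises RNA whose cap lacks methylation. The 4 members of the family lie near each other on chromosome 10, and all 4 were called higher in KG-1a, with a median log2 fold change of 5.23. IFIT3 had 63.2, 35.6 and 54.2 CPM in KG-1a with darglitazone, pioglitazone and DMSO, against 0.641, 0.129 and 0 CPM in MV4-11, 2.35, 1.93 and 2.98 CPM in MOLM-14, and 2.23, 4.39 and 0.568 CPM in OCI-AML3. Every KG-1a library was above every other library. In OCI-AML3 with pioglitazone the reads of other lines would give 1.03 of its unscaled 4.57 CPM of IFIT3. The log2 fold change of IFIT3 was 5.64 (SE 0.39, adjusted p = 3.86e-07). IFIT1 averaged 18.3 ± 2.21 CPM in KG-1a and 1.24 ± 0.324 CPM in MOLM-14 (SD, n = 3 libraries each), with a log2 fold change against the other 3 lines of 5.53 (SE 0.47, adjusted p = 1.35e-07) and of 6.41 without the 3 doubted libraries. IFIT2 averaged 26.3 ± 7.01 CPM in KG-1a and 3.33 ± 0.929 CPM in MOLM-14 (SD, n = 3 each). Its log2 fold change against the other 3 lines was 4.92 (SE 0.40, adjusted p = 1.55e-07), and 5.59 without the doubted libraries. IFIT5 was the steadiest member of the family in KG-1a, with 17.6, 17.2 and 17.3 CPM, and its log2 fold change was 4.68 (SE 0.33, adjusted p = 1.97e-08), and 5.76 with the reads of other lines subtracted. IFIT1, IFIT2 and IFIT3 lie on the opposite strand within LIPA, so their counts are uncertain unless strand was used in counting, which the sources used here do not state.

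RSAD2, or viperin, makes a nucleotide analogue that ends viral RNA synthesis, and it had the largest log2 fold change of the 36 members in KG-1a. It had 201, 183 and 200.3 CPM in KG-1a with darglitazone, pioglitazone and DMSO, against 3.63, 2.98 and 1.45 CPM in MV4-11, 4.70, 4.84 and 4.50 CPM in MOLM-14, and 0.760, 5.26 and 0.389 CPM in OCI-AML3. The KG-1a libraries were close to each other and far from the rest. The log2 fold change was 6.58 (SE 0.26, adjusted p = 7.09e-09), and 7.199 with the reads of other lines subtracted. RSAD2 overlaps CMPK2 on the opposite strand. The dynamin-like GTPases MX1 and MX2, which block incoming viruses, were not called: MX1 averaged 1.69 ± 0.766 CPM in KG-1a, against 1.38 ± 1.07 CPM in MV4-11, 1.94 ± 0.274 CPM in MOLM-14 and 2.31 ± 1.25 CPM in OCI-AML3 (SD, n = 3 each). MX1, widely used as an indicator of interferon action, was thus low in all 4 lines, and no pair of lines next to each other in its order differed past the threshold.

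**Figure D2:**
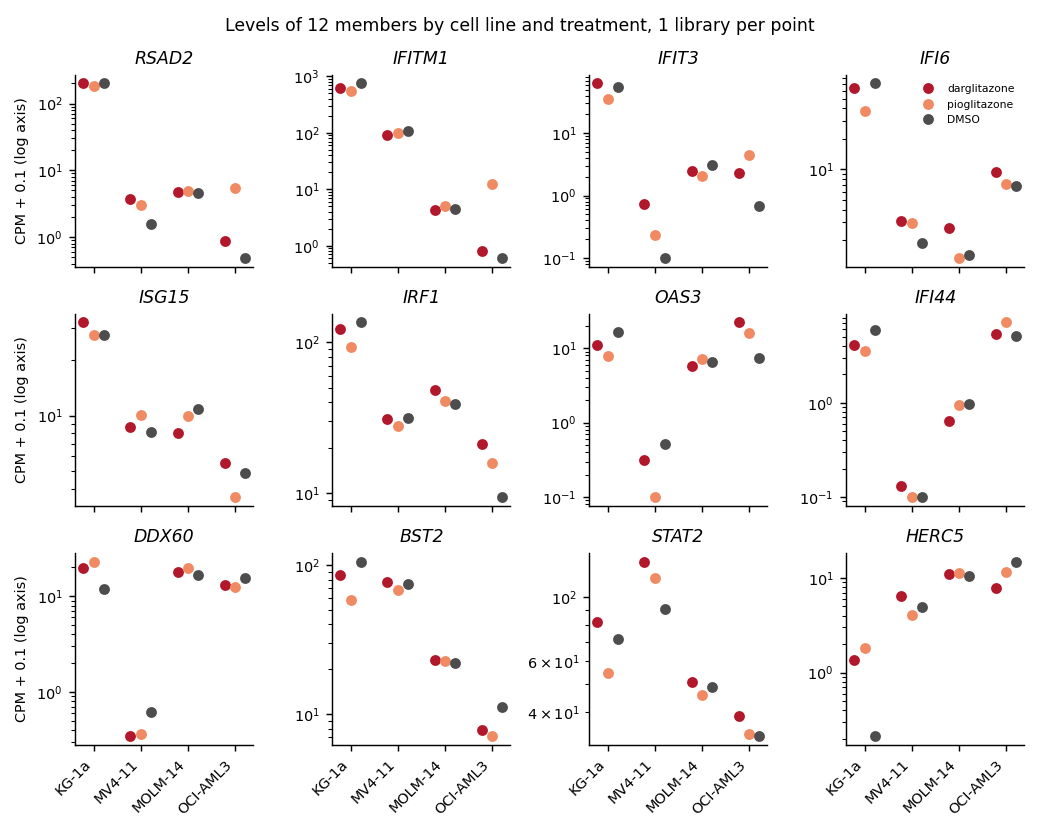
Level of 12 members in each library (points, colours for treatments) by cell line on a log axis of CPM plus 0.1. RSAD2, IFITM1, IFIT3, IFI6, ISG15 and IRF1 are highest in KG-1a, OAS3 and IFI44 lie near the floor in MV4-11, STAT2 is highest in MV4-11 and HERC5 is lowest in KG-1a.

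The IFITM proteins sit in membranes and hinder the fusion of viruses with the cell, and BST2, or tetherin, holds budding viruses to the cell surface. IFITM1 had 631, 544 and 758 CPM in KG-1a with darglitazone, pioglitazone and DMSO, against 91.2, 100.2 and 107 CPM in MV4-11, 4.28, 5.01 and 4.34 CPM in MOLM-14, and 0.713, 12.3 and 0.508 CPM in OCI-AML3. The order KG-1a, MV4-11, then the other lines held under every treatment. The log2 fold change in KG-1a was 6.42 (SE 0.48, adjusted p = 3.04e-05), and 9.03 with the reads of other lines subtracted. The 9.03 is a fitted value that depends on the prior count, because little IFITM1 is then left in OCI-AML3. IFITM2 averaged 279.6 ± 39.2 CPM in KG-1a, against 77.5 ± 2.70 CPM in MV4-11, 24.3 ± 2.69 CPM in MOLM-14 and 27.8 ± 4.31 CPM in OCI-AML3 (SD, n = 3 each). BST2 was at 82.9 ± 23.8 CPM in KG-1a and 73.0 ± 4.52 CPM in MV4-11 (SD, n = 3 each), which did not differ past the threshold (log2 difference 0.15, 95% interval -0.22 to 0.52). IFITM3 was the exception in the group, at 1.68, 3.12 and 9.17 CPM in KG-1a with darglitazone, pioglitazone and DMSO, with a log2 fold change of 0.91 (SE 0.52, adjusted p = 0.155). Without the 3 doubted libraries, that is, with the KG-1a DMSO library alone, it was 1.97 and was called (adjusted p = 0.0342 by edgeR). The longest open reading frames of IFITM1 and IFITM2 are 86.4% identical, those of IFITM1 and IFITM3 88.8% and those of IFITM2 and IFITM3 94.0%, and the annotated spans of IFITM1 and IFITM2 overlap on the same strand. How reads were shared out among the 3 genes is not stated in the labels, so their split is uncertain. Per length, in TPM, the counts scaled by transcript length and depth, IFITM1 and IFITM2 were the 2 most abundant members in KG-1a with DMSO (934 and 576 TPM) and in MV4-11 with DMSO (149 and 144 TPM). In MOLM-14 with DMSO the most abundant member was IFITM2 at 43.2 TPM, followed by TRIM22 at 36.7 TPM, and in OCI-AML3 with DMSO it was TRIM22 at 96.2 TPM, followed by IFITM2 at 57.1 TPM.

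Of the RNA sensors and enzymes, 8 of 8 tested were called higher in KG-1a than in the mean of the other 3 lines. Their median log2 fold change was 2.03. Against single lines, 8 of 8 were called higher than in MV4-11, 6 of 8 than in MOLM-14 and 6 of 8 than in OCI-AML3. Of all genes tested, 47.4%, 52.7% and 51.5% were called in either direction in these contrasts. OAS1, an oligoadenylate synthetase that activates RNase L, had 13.6, 7.96 and 14.4 CPM in KG-1a with darglitazone, pioglitazone and DMSO, against 0.427, 0.388 and 0.726 CPM in MV4-11, 5.99, 4.54 and 4.80 CPM in MOLM-14, and 1.52, 2.63 and 0.523 CPM in OCI-AML3. Every KG-1a library was above all others. Its log2 fold change was 3.10 (SE 0.37, adjusted p = 5.75e-06). EIF2AK2, the kinase PKR that halts translation when it meets double-stranded RNA, averaged 46.8 ± 6.28 CPM in KG-1a, against 10.5 ± 1.09 CPM in MV4-11, 29.2 ± 1.32 CPM in MOLM-14 and 18.0 ± 4.196 CPM in OCI-AML3 (SD, n = 3 each). IFIH1, the sensor MDA5 of long double-stranded RNA, averaged 18.2 ± 2.28 CPM in KG-1a and 4.97 to 8.05 CPM in the other lines, with a log2 fold change of 1.48 (SE 0.22, adjusted p = 3.95e-05). The remaining members of the group were OAS2 (log2 fold change 2.03), OAS3 (2.09), OASL (1.87), the exonuclease ISG20 (3.17) and the helicase DDX60 (2.04). Without the 3 doubted libraries OAS3 came to 2.81, ISG20 to 3.92 and DDX60 to 1.26, and OASL was no longer called (1.89, adjusted p = 0.0835 by edgeR). OAS3 and DDX60 were not unique to KG-1a, since neither differed past the threshold between KG-1a and the line next to it in level. DDX60 stood 0.01 higher on the log2 scale in MOLM-14 than in KG-1a, and OAS3 0.31 higher in OCI-AML3. The mean of the other lines includes MV4-11, where both were near-absent. EIF2AK2 overlaps GPATCH11 on the opposite strand.

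Among the transcription factors, IRF1, IRF7 and IRF9 were called higher in KG-1a and STAT2 was not. IRF1, the factor made in response to interferon-gamma through GAS, had 122, 92.5 and 135 CPM in KG-1a with darglitazone, pioglitazone and DMSO, against 30.9, 27.7 and 31.3 CPM in MV4-11, 47.8, 40.5 and 38.9 CPM in MOLM-14, and 21.0, 15.8 and 9.30 CPM in OCI-AML3. The groups did not overlap. The log2 fold change was 2.15 (SE 0.16, adjusted p = 6.3e-08). IRF9, the DNA-binding subunit of ISGF3, averaged 52.8 ± 6.37 CPM in KG-1a and 7.01 to 11.1 CPM in the other lines (log2 fold change 2.67, SE 0.16, adjusted p = 4.97e-09). IRF7, the amplifier of type I interferon production, averaged 36.3 ± 6.80 CPM in KG-1a and 8.21 to 14.7 CPM elsewhere (log2 fold change 1.63, SE 0.25, adjusted p = 0.000112). STAT2 was instead highest in MV4-11, at 133, 116 and 90.7 CPM with darglitazone, pioglitazone and DMSO, against 82.1, 54.6 and 71.3 CPM in KG-1a. IRF1 is overlapped by IRF1-AS1 on the opposite strand and IRF9 by another protein-coding entry on its own strand, so both counts carry that uncertainty.

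All 4 tested IFI genes were called higher in KG-1a, with a median log2 fold change of 3.2. IFI6, a small protein of the endoplasmic reticulum and mitochondria, had 63.4, 37.7 and 70.7 CPM in KG-1a with darglitazone, pioglitazone and DMSO, against 2.99, 2.85 and 1.76 CPM in MV4-11, 2.57, 1.24 and 1.32 CPM in MOLM-14, and 9.31, 7.02 and 6.80 CPM in OCI-AML3. The lowest KG-1a library was still above every other library, and OCI-AML3 stood second throughout. The log2 fold change was 4.198 (SE 0.19, adjusted p = 2.25e-10). IFI35, a partner of NMI, averaged 32.6 ± 8.30 CPM in KG-1a and 10.0 to 19.3 CPM in the other lines. IFI44 averaged 4.43 ± 1.29 CPM in KG-1a and 5.76 ± 1.10 CPM in OCI-AML3 (SD, n = 3 each), which did not differ past the threshold (log2 difference -0.35, 95% interval -1.42 to 0.72). IFI27 was counted at 0 to 1.62 CPM in all 12 libraries and was not tested.

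In the ISG15 system, the ubiquitin-like modifier and its removing enzyme stood apart from the ligase. ISG15, the modifier, averaged 28.9 ± 2.71 CPM in KG-1a, against 8.86 ± 0.977 CPM in MV4-11, 9.55 ± 1.49 CPM in MOLM-14 and 4.56 ± 0.968 CPM in OCI-AML3 (SD, n = 3 each), with a log2 fold change in KG-1a of 1.95 (SE 0.17, adjusted p = 2.39e-07). USP18, the protease that removes ISG15 and also restrains the type I receptor, was called higher by a small margin (log2 fold change 0.67, SE 0.26, adjusted p = 0.0435), and leaving out a single library ended this call, except for either OCI-AML3 drug library, the MOLM-14 library with pioglitazone and the KG-1a library with darglitazone. HERC5, the main ligase that attaches ISG15, ran the other way. It had 1.26, 1.71 and 0.113 CPM in KG-1a with darglitazone, pioglitazone and DMSO, or 6, 17 and 1 counts, against 6.32, 4.01 and 4.87 CPM in MV4-11, 10.8, 11.1 and 10.3 CPM in MOLM-14, and 7.65, 11.4 and 14.8 CPM in OCI-AML3. All 3 KG-1a libraries were below all others, and the log2 fold change was -3.10 (SE 0.51, adjusted p = 0.000135). Without the doubted libraries it was -6.40, a fitted value that rests on the 1 count in the KG-1a DMSO library.

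Of the 6 remaining effectors, 4 were called higher in KG-1a and 1 was called lower. PARP9, which acts with the ubiquitin ligase DTX3L, averaged 66.6 ± 11.4 CPM in KG-1a and 6.76 to 12.2 CPM in the other lines (log2 fold change 2.81, SE 0.13, adjusted p = 2.75e-10). SAMD9L, a translation inhibitor, averaged 39.6 ± 4.50 CPM in KG-1a and 3.74 to 9.19 CPM elsewhere (log2 fold change 2.72, SE 0.20, adjusted p = 3.62e-08). Its neighbour and paralogue SAMD9 was not called, at 24.7 ± 5.72 CPM in KG-1a, against 17.9 ± 1.79 CPM in MV4-11, 12.7 ± 2.72 CPM in MOLM-14 and 25.6 ± 8.45 CPM in OCI-AML3 (SD, n = 3 each). The mono-ADP-ribosyltransferase PARP14 (log2 fold change 1.20) and the ubiquitin ligase TRIM22 (1.0) were called higher by smaller margins, and TRIM22 was no longer called without the doubted libraries (0.84, adjusted p = 0.0683 by edgeR). XAF1, which promotes apoptosis, was the other member called lower, at 17.8, 25.8 and 25.5 CPM in KG-1a with darglitazone, pioglitazone and DMSO, against 38.4, 29.6 and 31.6 CPM in MV4-11, 50.3, 46.0 and 43.6 CPM in MOLM-14, and 27.4, 41.2 and 19.0 CPM in OCI-AML3. KG-1a and OCI-AML3 overlapped and did not differ past the threshold. Its log2 fold change against the 3 lines was -0.57 (SE 0.19, adjusted p = 0.0206), and without the KG-1a library with darglitazone it was no longer called, which leaves 1 lower call, HERC5. PARP9 overlaps DTX3L and TRIM22 overlaps TRIM5, each on the opposite strand.

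MV4-11 combined near-absent IFIT, OAS1, OAS3 and DDX60 RNA with high IFITM1, BST2 and STAT2. In MV4-11, 5 of 36 members were called higher and 19 lower, against a background of 23.3% and 17.5% of all genes tested, and the median log2 fold change was -0.92 over the members and 0.02 over all genes. Without the MV4-11 library with pioglitazone, 3 members were called higher. DDX60, a helicase that assists RNA sensing, had 0.244, 0.259 and 0.518 CPM in MV4-11 with darglitazone, pioglitazone and DMSO, against 19.9, 22.97 and 11.8 CPM in KG-1a, 17.9, 19.8 and 16.7 CPM in MOLM-14, and 13.2, 12.3 and 15.6 CPM in OCI-AML3. The other 3 lines were alike for DDX60 and MV4-11 alone was low, with a log2 fold change of -5.70 (SE 0.36, adjusted p = 2.93e-08), and of -6.59 with the reads of other lines subtracted. OAS3 had 0.214, 0 and 0.415 CPM in MV4-11 and 5.67 to 22.1 CPM over the other lines (log2 fold change -5.58, SE 0.60, adjusted p = 5.31e-06, and -6.42 with subtraction). IFI44, IFIT1 and IFIT5 were close to the floor, with 1, 3 and 3 counts over the 3 MV4-11 libraries, so they are given as ratios with counting intervals. IFIT1 stood at 0.325% of its KG-1a level (95% interval 0.0668% to 0.957%) and IFIT5 at 0.345% (0.0709% to 1.02%). IFI44 stood at 0.393% of its OCI-AML3 level (0.00993% to 2.20%). These intervals cover counting error only. The reads of other lines would give 0.1265, 0.06243 and 0.08088 CPM of IFIT1 in MV4-11 with darglitazone, pioglitazone and DMSO. Its unscaled levels were 0.06213, 0.1328 and 0 CPM. For IFIT5 those reads would give 0.1202, 0.05925 and 0.08443 CPM, against 0.09319, 0 and 0 CPM. For IFI44 those reads would give 0.03846, 0.01838 and 0.1038 CPM, against 0.03106, 0 and 0 CPM. The part of those reads in the ratios was not tested. By role, 7 of 8 RNA sensors and enzymes and 4 of 4 IFIT genes were called lower in MV4-11. Against OCI-AML3 alone, 4 of the 8 and 2 of the 4 were called lower, with 40.7% of all genes tested called in either direction. IFIT2, IFIT3 and OAS1 did not differ past the threshold between MV4-11 and OCI-AML3, the line above it in level.

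The members called higher in MV4-11 were IFITM1, BST2, STAT2, MX2 and IFITM2. IFITM1 averaged 99.5 ± 7.84 CPM there, far above MOLM-14 (4.54 ± 0.409 CPM) and OCI-AML3 (4.50 ± 6.74 CPM; SD, n = 3 each) and below KG-1a, which gave a log2 fold change against the other 3 lines of 2.81 (SE 0.48, adjusted p = 0.00326), and of 5.38 with the reads of other lines subtracted. The IFITM1 value with subtraction depends on the prior count, because little IFITM1 is then left in OCI-AML3. BST2 had 76.9, 68.0 and 74.1 CPM in MV4-11 with darglitazone, pioglitazone and DMSO, against 22.9, 22.6 and 21.9 CPM in MOLM-14 and 7.70, 7.02 and 11.1 CPM in OCI-AML3 (log2 fold change against the other 3 lines 1.54, SE 0.14, adjusted p = 6.34e-07). STAT2 averaged 113 ± 21.2 CPM in MV4-11, against 69.3 ± 13.8 CPM in KG-1a, 48.3 ± 2.56 CPM in MOLM-14 and 34.99 ± 3.28 CPM in OCI-AML3 (SD, n = 3 each). Its log2 fold change was 1.21 (SE 0.11, adjusted p = 1.08e-06), and STAT2 was the only member whose level was called above that of the next line outside KG-1a. MX2, a restriction factor of nuclear entry, averaged 9.30 ± 1.11 CPM in MV4-11 and 9.21 ± 1.77 CPM in OCI-AML3 (SD, n = 3 each), and the 2 lines did not differ past the threshold. The MX2 call in MV4-11 (log2 fold change 0.91, SE 0.31, adjusted p = 0.0308) was lost in 7 of 18 alternatives.

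**Figure D3:**
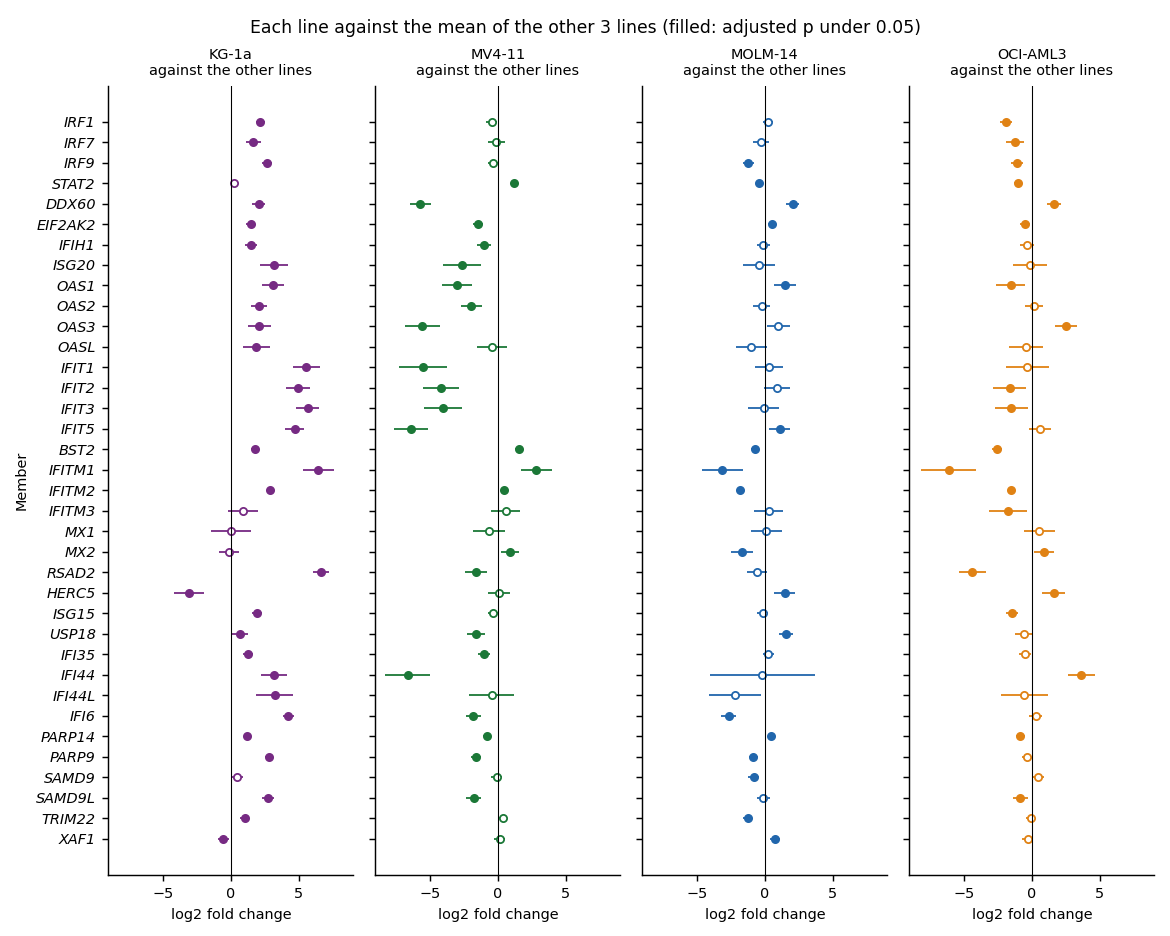
Log2 fold change of the 36 tested members in each line against the mean of the other 3, with 95% confidence intervals, and filled points where the adjusted p is under 0.05. Most filled points lie right of 0 in KG-1a and left of 0 in MV4-11, while MOLM-14 and OCI-AML3 are mixed.

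Against the mean of the other 3 lines, OCI-AML3 had low transcription factor and membrane protein RNA but high IFI44, OAS3 and HERC5. In OCI-AML3, 5 of 36 members were called higher and 16 lower, with 23% and 19.4% of all genes tested called in the same directions. Without the OCI-AML3 library with DMSO, the deepest of all, the counts fell to 3 and 10. All 4 transcription factors were called lower, with IRF1 at a log2 fold change of -1.89 (SE 0.21, adjusted p = 8.49e-06). All 4 membrane proteins were called lower too. Against MOLM-14 alone, 2 of the 4 transcription factors and 1 of the 4 membrane proteins were called lower. Between these 2 lines 33.6% of all genes tested were called in either direction. BST2 averaged 8.61 ± 2.20 CPM in OCI-AML3, and its log2 fold change was -2.55 (SE 0.18, adjusted p = 8.11e-08). IFITM1 had a log2 fold change of -6.10 (SE 0.85, adjusted p = 0.00119) and RSAD2 one of -4.38 (SE 0.45, adjusted p = 2.29e-05). For both, the OCI-AML3 library with pioglitazone was the high one. Its unscaled level of IFITM1 was 13.1 CPM, where the reads of other lines in it would give 13.5 CPM, and for RSAD2 the values were 5.07 and 3.85 CPM. Without that library the log2 fold change of IFITM1 was -6.87 (adjusted p = 2.77e-10) and that of RSAD2 was -4.71 (adjusted p = 5.46e-08). With the reads of other lines subtracted from every library, RSAD2 came to -5.31 and IFITM1 came to -13.15, a fitted value that depends on the prior count because little is left of it in OCI-AML3. OAS3 was among the members called higher, with 22.1, 15.8 and 7.25 CPM in OCI-AML3 with darglitazone, pioglitazone and DMSO, against 10.9, 7.66 and 16.3 CPM in KG-1a and 5.67, 6.98 and 6.46 CPM in MOLM-14. KG-1a overlapped OCI-AML3, and these 2 did not differ past the threshold. OAS3 had a log2 fold change against the other 3 lines of 2.51 (SE 0.39, adjusted p = 0.000142). IFI44 had 5.27, 7.02 and 4.98 CPM in OCI-AML3, against 0.534, 0.857 and 0.861 CPM in MOLM-14 (log2 fold change against the other 3 lines 3.64, SE 0.45, adjusted p = 1.52e-05, and 4.30 with subtraction). DDX60 was called higher as well (1.61), with OCI-AML3 behind MOLM-14 and KG-1a in level. HERC5 averaged 11.3 ± 3.58 CPM in OCI-AML3 and 10.7 ± 0.403 CPM in MOLM-14 (SD, n = 3 each), and its log2 fold change in OCI-AML3 was 1.59 (SE 0.38, adjusted p = 0.00387), and 2.62 without the 3 doubted libraries. MX2 and IFIT2 were called in OCI-AML3 (log2 fold changes 0.90 and -1.64), but MX2 was lost in 10 and IFIT2 in 9 of 18 alternatives, and the lower call of IFIT3 was lost in 10.

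MOLM-14 was the line nearest to the middle, with 8 of 36 members called higher and 10 lower, against 23.5% and 17.7% of all genes tested. The median log2 fold change was -0.13 over the members and 0.04 over all genes, and the median of the members moved to -0.01 without the MOLM-14 library with darglitazone and to -0.04 without the MV4-11 library with darglitazone. USP18 was highest here, with 16.4, 15.8 and 13.3 CPM in MOLM-14 with darglitazone, pioglitazone and DMSO, against 8.17, 7.96 and 13.0 CPM in KG-1a, and a log2 fold change against the other 3 lines of 1.53 (SE 0.25, adjusted p = 0.000167). DDX60 (2.06), OAS1 (1.47), HERC5 (1.46), IFIT5 (1.08) and XAF1 (0.76) were also called higher on the log2 scale. USP18 did not differ past the threshold between MOLM-14 and KG-1a, the next line (log2 difference 0.64, adjusted p = 0.104 by edgeR), nor did DDX60 between these 2 lines or HERC5 between OCI-AML3 and MOLM-14. The IFIT5 call was lost in 7 of 18 alternatives and was 2.13 with subtraction, and HERC5 was 2.58 without the 3 doubted libraries. The calls of IFIT5, PARP14 and SAMD9 in MOLM-14 were lost without those libraries. The largest falls were in IFITM1 (-3.13), IFI6 (-2.66), IFITM2 (-1.80), MX2 (-1.69), TRIM22 (-1.26) and IRF9 (-1.21). With the reads of other lines subtracted, IFITM1 was no longer called in MOLM-14 (-1.26, SE 3.30, adjusted p = 0.848 by edgeR). This fitted value depends on the prior count, because the mean of the other 3 lines then includes OCI-AML3 with little IFITM1 left. In MOLM-14 itself the reads of other lines would give 1.396 to 1.556 of its unscaled 4.231 to 5.075 CPM of IFITM1. MX2 averaged 2.36 ± 1.13 CPM in MOLM-14 and 5.49 ± 2.23 CPM in KG-1a, the next line above it (SD, n = 3 each), and this step passed the threshold.

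Ranked by level, KG-1a came first for 26 of the 36 members, and for 24 of these it differed past the threshold from the second line. The exceptions were BST2 and IFITM3, for which KG-1a and MV4-11 did not differ past the threshold. OCI-AML3 came first for 5 members, MOLM-14 for 3 and MV4-11 for 2. Between 2 given lines the share of all genes tested that differed was 33.6% (OCI-AML3 against MOLM-14), 37.1% (MV4-11 against MOLM-14), 40.7% (MV4-11 against OCI-AML3), 47.4% (KG-1a against MV4-11), 51.5% (KG-1a against OCI-AML3) and 52.7% (KG-1a against MOLM-14). These shares count either direction and are no background for a rank. How often each line came first or last over all genes was not computed. MV4-11 came last for 17 members, and for 8 of these it differed past the threshold from the line above. KG-1a came last only for HERC5 and XAF1. The order of levels differed between members of the same role: IFI44 ran OCI-AML3, KG-1a, MOLM-14 and MV4-11, whereas IFI6 ran KG-1a, OCI-AML3, MV4-11 and MOLM-14. However, OCI-AML3 and KG-1a did not differ past the threshold for IFI44, nor did MV4-11 and MOLM-14 for IFI6.

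The upstream pathway was compared through lists chosen with earlier results of these data known. As a background, 26.9% of all genes tested were called higher in KG-1a against the other lines and 27.2% lower. No interferon RNA was seen in quantity: the 22 ligand genes summed to at most 0.107 CPM in any library, and none could be tested. Of 5 tested receptor subunits, 1 was called higher in KG-1a and 2 lower, and IFNAR2, the subunit that binds type I interferon most tightly, was lower in KG-1a at 5.44, 5.64 and 5.09 CPM with darglitazone, pioglitazone and DMSO, against 16.8, 17.2 and 17.2 CPM in MV4-11. Of 12 JAK, STAT and feedback genes, 6 were called higher in KG-1a and none lower. Of 18 tested genes of the sensing pathway, 7 were called higher and 6 lower in KG-1a, so that this list did not run in one direction. Antigen presentation by class I molecules ran with the members: 13 of 15 genes were called higher in KG-1a and 2 lower, among them the peptide transporter subunit TAP1 (log2 fold change 3.61, SE 0.11). Targets of interferon-gamma did so too, with 9 of 12 tested called higher and 1 lower. The guanylate-binding protein GBP1 had 216, 185 and 281 CPM in KG-1a with darglitazone, pioglitazone and DMSO, against 1.10, 0.905 and 0.415 CPM in MV4-11, and at most 2.63 CPM in the remaining libraries.

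Cell type markers differed between KG-1a and the other lines as well, with calls in both directions. The shares over all genes tested in that contrast were 26.9% higher and 27.2% lower. The summed level of 7 erythroid and megakaryocyte markers was 221, 234 and 305 CPM in KG-1a with darglitazone, pioglitazone and DMSO and at most 11.1 CPM in the other lines, nearly all of it from ITGA2B, with HBA1, HBA2, HBB and PF4 at 0 in every KG-1a library, and 1 of the 2 tested was called higher. The 8 T and NK cell markers summed to 159, 154 and 192 CPM in KG-1a and 48.3 to 318 CPM in the other lines, and 5 of 7 tested were called higher and 1 lower. CD3E, a defining T cell marker, had 11.5, 14.4 and 14.6 CPM in KG-1a and at most 0.0857 CPM elsewhere. The 5 B cell markers summed to 57.8, 53.1 and 68.3 CPM in KG-1a and 3.51 to 65.6 CPM in the other lines, with 2 of 4 tested called higher and 1 lower and with MS4A1 at 0 in all 12 libraries. Plasmacytoid dendritic cells are the strongest known source of type I interferon, and their 5 markers summed to 17.6, 19.3 and 22.97 CPM in KG-1a and 51.4 to 101 CPM in the other lines, all 3 tested were called lower, and their defining marker CLEC4C was at most 0.302 CPM in any library. Of the 8 stroma and epithelium markers, 2 of 4 tested were called higher in KG-1a and 0 lower, with sums of 84.2, 82.5 and 102 CPM in KG-1a and 23.5 to 176 CPM elsewhere. The part of these genes in the level of the members was not tested. The 11 myeloid markers summed to 1277, 1028 and 1381 CPM in KG-1a and 913 to 3298 CPM in the other lines, with 4 of 11 called higher and 6 lower, and CD33 and SPI1, which define the lineage, were detected in all 12 libraries. Some libraries held reads of other lines, so detection alone does not give a line's own level.

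Neither drug changed a member past the threshold. With darglitazone against DMSO, 0 of 36 members and 0 of 15424 genes were called by edgeR, so that the background was 0%, and at an unadjusted p under 0.05 there were 1 member and 525 genes (3.4%). The members were also at 0 calls by DESeq2 and by limma-voom, which called 6 genes each over all genes. The median log2 fold change was 0.06 over the members, of which 23 were positive and 13 negative, and 0.01 over all genes, and over the alternatives it lay between -0.03 and 0.18. PARP9 was the member with the smallest p, at 60.1, 5.71, 8.87 and 11.1 CPM with darglitazone in KG-1a, in MV4-11, in MOLM-14 and in OCI-AML3, against 79.8, 6.94, 11.2 and 15.9 CPM with DMSO. It was lower in 4 of 4 lines, with a log2 fold change of -0.40 (95% interval -0.72 to -0.07, unadjusted p = 0.0195, adjusted p = 1.0 by edgeR). IFITM2 had 259, 75.2, 23.7 and 26.1 CPM with darglitazone in the same lines, against 325, 76.9, 27.3 and 32.7 CPM with DMSO (log2 fold change -0.23, 95% interval -0.46 to 0.01). TRIM22 had 159, 127, 47.4 and 66.9 CPM with darglitazone, against 170.3, 114, 46.4 and 126 CPM with DMSO. Its log2 fold change of -0.21 rested on OCI-AML3 and was 0.03 without that line. STAT2 had 82.1, 133, 50.7 and 38.8 CPM with darglitazone, against 71.3, 90.7, 48.8 and 32.9 CPM with DMSO, higher in 4 of 4 lines by a fitted log2 fold change of 0.26 (95% interval -0.01 to 0.53). The 4 transcription factors had log2 fold changes of 0.25 to 0.36 and the 4 IFIT genes of 0.61 to 0.71, and none was called. The widest intervals in these 2 groups belonged to IFIT1, at -0.55 to 1.77, so a change of that size in an IFIT gene could not be told from none.

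With pioglitazone against DMSO, 0 of 36 members and 0 of 15424 genes were called by edgeR (0%), with 1 member and 919 genes (5.96%) at an unadjusted p under 0.05. DESeq2 called 56 genes, none of them a member, and limma-voom called 0. The median log2 fold change was -0.08 over the members, of which 13 were positive and 23 negative, and -0.02 over all genes, and over the alternatives it lay between -0.21 and 0.12. BST2 had 58.0, 68.0, 22.6 and 7.02 CPM with pioglitazone in KG-1a, in MV4-11, in MOLM-14 and in OCI-AML3, against 105.5, 74.1, 21.9 and 11.1 CPM with DMSO. It was lower in 3 of 4 lines (log2 fold change -0.38, 95% interval -0.73 to -0.03, unadjusted p = 0.036, adjusted p = 0.822 by edgeR), and the log2 fold change was -0.14 without the 3 doubted libraries. IFITM2 was lower with pioglitazone in 3 of 4 lines by a log2 fold change of -0.24 (95% interval -0.48 to 0.0048) and TRIM22 by -0.29 (95% interval -0.64 to 0.05). SAMD9 had 30.9, 15.9, 15.8 and 33.3 CPM with pioglitazone, against 19.7, 18.2, 10.8 and 26.8 CPM with DMSO, higher in 3 of 4 lines (log2 fold change 0.32, 95% interval -0.12 to 0.76). XAF1 (0.23) and DDX60 (0.25) were also on the positive side, but DDX60 turned to -0.12 without KG-1a. Without the 3 doubted libraries SAMD9 came to 0.0572, XAF1 to 0.0374 and DDX60 to 0.0281. The 2 drug contrasts share their DMSO libraries, so likeness between them is not read as a result.

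The 2 thiazolidinediones were compared at the same dose and time in the same lines. Darglitazone against pioglitazone gave 0 of 36 members and 0 of 15424 genes called by edgeR (0%), with 2 members and 541 genes (3.51%) at an unadjusted p under 0.05, and with 12 genes and no member called by DESeq2 and 0 genes by limma-voom. The median log2 fold change was 0.22 over the members, 24 of them positive, and 0.03 over all genes. Without the KG-1a library with pioglitazone, which held the large ribosomal RNA share, the median over the members was 0.07, and without line KG-1a it was 0.04. IFI6 had 63.4, 2.99, 2.57 and 9.31 CPM with darglitazone in KG-1a, in MV4-11, in MOLM-14 and in OCI-AML3, against 37.7, 2.85, 1.24 and 7.02 CPM with pioglitazone, higher in 4 of 4 lines (log2 fold change 0.62, 95% interval 0.07 to 1.18, unadjusted p = 0.0303, adjusted p = 0.98 by edgeR), and by 0.43 on the log2 scale without the 3 doubted libraries. STAT2 was also higher with darglitazone in 4 of 4 lines, by 0.29 on the log2 scale (95% interval 0.01 to 0.57), and by 0.14 without the doubted libraries. IRF1 was higher with darglitazone in 4 of 4 lines, at 122, 30.9, 47.8 and 21.0 CPM with darglitazone, against 92.5, 27.7, 40.5 and 15.8 CPM with pioglitazone (log2 fold change 0.36, 95% interval -0.07 to 0.78). SAMD9 ran the other way by -0.38 (95% interval -0.83 to 0.06). For the 36 members the intervals of the difference between the compounds reached from -1.71 (IFITM1) to 2.68 (IFI44L), so these data do not show that the compounds act alike on these genes.

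**Figure D4:**
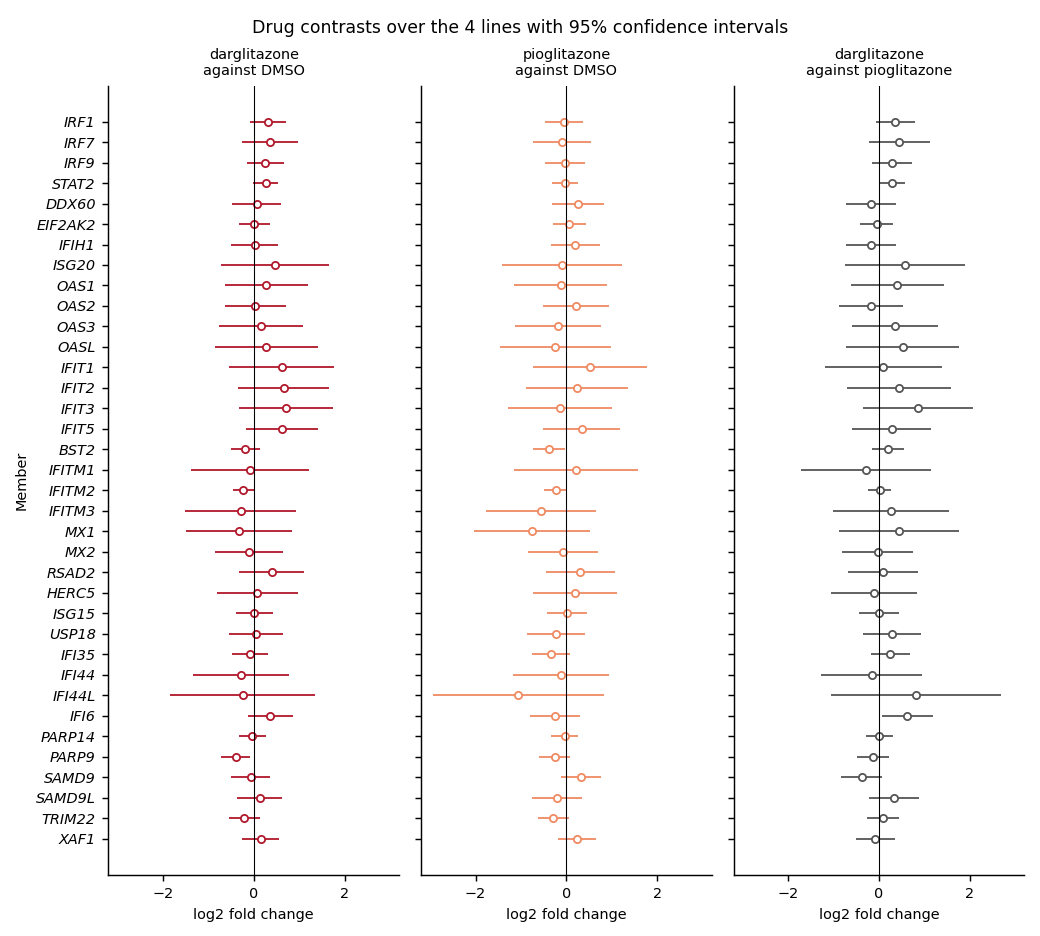
Log2 fold change of the 36 tested members (rows, by role) for darglitazone against DMSO, pioglitazone against DMSO and darglitazone against pioglitazone over the 4 lines, with 95% confidence intervals. All points are open because no adjusted p is under 0.05, and intervals are wide for genes with few counts such as IFI44L, MX1 and IFITM1.

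Within single lines each treatment has 1 library and no test is possible. The median log2 ratio of darglitazone to DMSO was -0.13 in KG-1a (10 of 36 members positive), 0.07 in MV4-11 (20 positive), 0.07 in MOLM-14 (26 positive) and 0.32 in OCI-AML3 (23 positive). Over all genes tested the same medians lay between 0 and 0.02, with 47.7% of genes positive in KG-1a, 52.0% in MV4-11, 48.1% in MOLM-14 and 48.2% in OCI-AML3. For pioglitazone to DMSO the median of the members was -0.40 in KG-1a (6 positive), -0.08 in MV4-11 (14 positive), 0.07 in MOLM-14 (21 positive) and 0.22 in OCI-AML3 (23 positive). Over all genes it was 0 in KG-1a (48.7% positive), -0.01 in MV4-11 (46.7%), 0 in MOLM-14 (49.1%) and -0.20 in OCI-AML3 (37.5%). The members thus ran lower in KG-1a with pioglitazone, in the library with the large ribosomal RNA share, whose part in this was not tested. MOLM-14 was the steadiest line, with 1 member beyond a log2 ratio of 1 in either direction for each drug. In OCI-AML3, 9 of 36 members were above a log2 ratio of 1 with darglitazone, against 7.23% of all genes tested, and 9 with pioglitazone, against 10.7%. Below -1 there were 0 members with darglitazone, against 5.34% of genes, and 3 with pioglitazone, against 18.9%. The pioglitazone library is the shallowest and holds reads of KG-1a. Of the 9 members above 1 in it, IFITM1 had an unscaled 13.1 CPM, where reads of other lines would give 13.5 CPM. For RSAD2 the values were 5.07 and 3.85 CPM. For IFIT1, IFIT2, IFIT3, OAS1, OAS3, OASL and XAF1 those reads would give at most 1.03 CPM, of unscaled levels of at least 2.74 CPM. The part of depth and of those reads in the counts of members was not tested.

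Whether the response differed between lines was tested with a term for line by drug, which leaves 3 residual degrees of freedom. By edgeR's F test 0 of 36 members were called, as was 1 gene of 15424 (0.00648%), and 4 members and 470 genes (3.05%) had an unadjusted p under 0.05. DESeq2 called 65 genes and limma-voom 11, and no member was among them. The 4 members were IRF1 (unadjusted p = 0.0112), IFIT3 (0.0141), HERC5 (0.0301) and IRF7 (0.0446). In OCI-AML3 against the other lines, 0 members and 2 genes (0.013%) were called by edgeR, with 8 members and 1009 genes (6.54%) at an unadjusted p under 0.05. IRF1 had 21.0 and 15.8 CPM in OCI-AML3 with darglitazone and pioglitazone, against 9.30 CPM with DMSO, from 441, 18 and 622 counts. Its response in OCI-AML3 exceeded that in the other lines by 1.08 on the log2 scale (SE 0.28, adjusted p = 0.509). IRF7 had 14.97 and 5.26 CPM in OCI-AML3 with darglitazone and pioglitazone, against 4.39 CPM with DMSO, and the pioglitazone value rests on 6 counts (log2 difference in response 1.56, SE 0.47, adjusted p = 0.551). OAS3 had 22.1 and 15.8 CPM with darglitazone and pioglitazone, against 7.25 CPM with DMSO in this line (log2 difference in response 2.14, SE 0.71, adjusted p = 0.646). Without the OCI-AML3 pioglitazone library the differences in response were 1.11 for IRF1 (adjusted p = 0.0942 by edgeR), 1.86 for IRF7 (0.0861) and 2.22 for OAS3 (0.27), and without either doubted KG-1a library none was called. All 3 genes were higher with both drugs than with DMSO in OCI-AML3, and none passed the adjusted threshold. HERC5 and TRIM22 ran lower there, with log2 differences in response of -2.02 and -0.76.

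In KG-1a against the other lines, 0 members and 1 gene (0.00648%) were called by edgeR, with 7 members and 580 genes (3.76%) at an unadjusted p under 0.05. HERC5 led with a log2 difference in response of 3.85 (SE 1.14, adjusted p = 1.0), which rests on the 1 count in the DMSO library. DDX60 had 19.9 and 22.97 CPM in KG-1a with darglitazone and pioglitazone, against 11.8 CPM with DMSO (log2 difference in response 1.23, SE 0.47, adjusted p = 1.0). IRF1 had 122 and 92.5 CPM in KG-1a with darglitazone and pioglitazone, against 135 CPM with DMSO, a log2 difference in response of -0.70 (SE 0.26, adjusted p = 1.0). IFITM3 had 1.68 and 3.12 CPM in KG-1a with darglitazone and pioglitazone, against 9.17 CPM with DMSO, and was not called. The median log2 difference in response was -0.56 over the members, 30 of them negative, and 0.02 over all genes. MV4-11 and MOLM-14 had 0 members and 0 genes called against the other lines, with 1 and 2 members and 306 (1.98%) and 234 (1.52%) genes at an unadjusted p under 0.05.

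**Figure D5:**
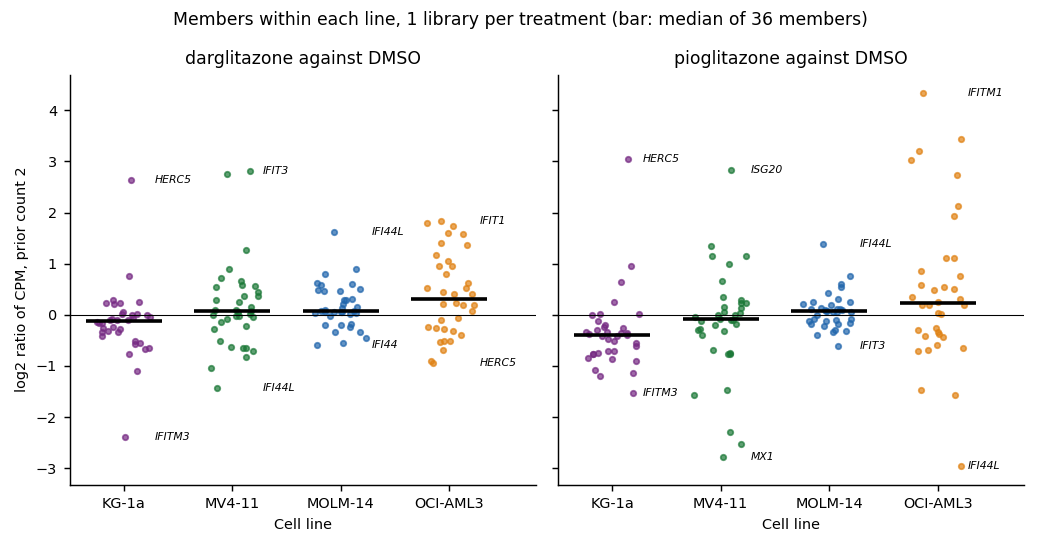
Log2 ratio of CPM, with a prior count of 2, for each of the 36 members within each line, for darglitazone against DMSO and pioglitazone against DMSO, with the median as a bar. Medians lie between -0.40 and 0.32, MOLM-14 has 1 point beyond a log2 ratio of 1 in either direction for each drug, and OCI-AML3 has 9 above 1 for each drug.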

How the data were processed

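RNA of 12 libraries was measured by RNA-seq with a stranded total RNA kit after ribosomal depletion, per the labels' protocols. The deposited values are estimated counts per transcript with no normalization, and 89.8% of those above 0 are not whole numbers, at a tolerance of 1e-06. The submitters' processing notes name fastp, FastQC, STAR, featureCounts, DESeq2 and GRCh38, without roles or versions, and the tool behind the fractional counts and the strand setting are not given in the sources used here. Of 203027 transcripts, 202941 matched GENCODE 29 and were summed to 57865 genes, the unmatched holding at most 0.0169% of a library's counts. Sums were rounded to whole numbers for testing.

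Genes were filtered with filterByExpr by line (minimum count 10, total 15), which left 15424, and scaled by TMM. The main test was the robust quasi-likelihood F test of edgeR 4.0.16 in R 4.3.3, with line and treatment as terms (6 residual degrees of freedom), and with a line by drug term for differences in response. P-values were adjusted by Benjamini-Hochberg over all genes, with a threshold of 0.05. Each line stands in all 3 treatments, so the line is the replicate block of the main test and the pairing is the shared cell line. Standard errors are the log2 fold change divided by the root of F, and log2 ratios within a line use a prior count of 2. The reads of other lines in a library were estimated from genes at 30 CPM or more in every library of the source line. Their median was at most 5% of that line's mean level in each other line, and under 1% in the receiving line's lowest library. At least 5 such genes were required. For reads of MOLM-14 in MV4-11 there were 4, so these were neither estimated nor subtracted. DESeq2 1.42.0, limma 3.58.1 (voom), DESeq2's size factors, no low-count filter, subtraction of other lines' reads, no replicate block and leaving out each line or library were alternatives. The test was also run on simulated counts with a fixed dispersion for all genes, which is simpler than these data. Promoter sequences are RefSeq's, on GRCh38.p14.

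The members and the lists of pathway genes and markers were chosen with earlier results of these data known. By rule, full statistics go to at most 6 called members per direction, by log2 fold change and with a mean log2 CPM of at least 1, or where none is called to the 3 per direction with the smallest p. Other members are named to describe their role group. Depth ran from 1095491 to 64236554 estimated counts, and intervals on counts cover counting error only.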

Additional observations from a re-analysis of the deposited data

Results flagged for a closer look

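In each treatment the 4 lines were checked for a line far from the other 3, by the gap to its nearest neighbour over the whole range, set against the critical value of Dixon's test for 4 samples. Of 90 such checks 26 passed. Chance gives about 1 in 20 in groups picked without regard to their values, but most of these checks are on genes picked because a line was called different, and they share genes and libraries, so that rate is not theirs. The summed level of the 37 members stood apart in KG-1a with darglitazone (0.832), pioglitazone (0.864) and DMSO (0.895). KG-1a was also the line apart for RSAD2 with darglitazone (0.980), pioglitazone (0.987) and DMSO (0.979), for IFIT3 (0.973, 0.880 and 0.945 in the same order), for IFI6 (0.889, 0.841 and 0.921) and for IRF9 (0.879, 0.912 and 0.906). With darglitazone and with DMSO it was apart for IFIT1 (0.910 and 0.946), IFIT2 (0.872 and 0.925) and IFITM1 (0.856 and 0.860), and with DMSO alone for IFIT5 (0.883) and IFITM2 (0.833).

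OCI-AML3 was the line apart for IFITM3 with pioglitazone (0.864), at 0.877 CPM in the shallowest library, below the 2.74 CPM that 3 counts give there. OCI-AML3 was also apart in the log2 ratio of XAF1 between pioglitazone and DMSO (0.858), where it had 41.2 CPM with pioglitazone and 19.0 CPM with DMSO. KG-1a was apart in the log2 ratio of STAT2 between darglitazone and pioglitazone (0.851), with 82.1 CPM with darglitazone and 54.6 CPM in the pioglitazone library that held 23.5% of its counts in a ribosomal RNA entry. The part of depth and of the ribosomal share in these 3 values was not tested.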

How the results depend on the processing

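No member was called in either drug contrast, between the drugs or by line under any of 12 to 14 alternatives each, while KG-1a kept 28 to 31 of its 31 called members over 18 alternatives, with 28 to 31 called higher and a median log2 fold change of 1.89 to 2.23. MV4-11 shared 22 to 24 of its 24 calls, MOLM-14 15 to 18 of 18 and OCI-AML3 13 to 21 of 21. Counts of genes over all genes moved more. Without the low-count filter 223 genes were called for pioglitazone, 76 for darglitazone, 88 between the drugs and 124 by line, and the MV4-11 median was -1.04. DESeq2 called 56, 6, 12 and 65 in the same order, and limma-voom called 6 for darglitazone and 11 by line. By line, 17 genes were called without the OCI-AML3 pioglitazone library, 8 without the KG-1a darglitazone library, 0 without the KG-1a pioglitazone library and 2 with other lines' reads subtracted. Between the drugs, the median of the members was 0.0741 and 1 gene was called without the KG-1a pioglitazone library, and the median was 0.14 with no replicate block, that is, without the pairing by line. Without the 3 doubted libraries, chosen after the data were seen, that median was 0.14, the MV4-11 median was -1.02 and 1 member was called lower in KG-1a.

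Leaving out each line gave 0 to 5 genes for pioglitazone, 0 to 4 between the drugs with a median of 0.0426 to 0.232, and 2 to 5 by line. The log2 fold change of TRIM22 with darglitazone lay between -0.34 and 0.0322 and turned positive without OCI-AML3, and that of DDX60 with pioglitazone lay between -0.12 and 0.47 and turned negative without KG-1a. Leaving out each library gave medians of -0.22 to -0.0121 in MOLM-14 and -1.15 to -0.88 in MV4-11, with 3 to 5 members higher in MV4-11, 3 to 5 higher and 10 to 17 lower in OCI-AML3, and 1 to 2 lower in KG-1a. The cause of these changes was not tested. Calls lost in at least 6 of 18 alternatives were those of IFIT3 (10), MX2 (10), IFIT2 (9) and IFITM3 (6) in OCI-AML3, USP18 (9) in KG-1a, IFIT5 (7) in MOLM-14 and MX2 (7) in MV4-11. The shallow OCI-AML3 pioglitazone library limits genes under 2.74 CPM.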
